A study of Homo sapiens with 6 samples.

Results

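Repeat-derived RNA was compared between cells that carried a hairpin-resistant EXOSC3 transgene and cells that carried an empty vector, all with the hairpin against EXOSC3 induced by doxycycline (dox). The members are 3 of the 6 libraries of the study: EXOSC3r clone 1 with dox, EXOSC3r clone 2 with dox and the empty-vector line, named PB, with dox. They were chosen by label, and the question put to the deposited read estimates was which repeat names and classes both clones place on the same side of the PB library. The other 3 libraries are the same lines without dox, and they give the difference between the lines before induction.

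All 3 lines derive from H1, an established line of human embryonic stem cells used between passages 40 and 60, and all carry the inducible short hairpin RNA against EXOSC3 and were grown feeder-free under puromycin and blasticidin selection. PB cells differ from the EXOSC3r lines in having the vector without the transgene. Each EXOSC3r line is 1 clone, the labels do not say whether the PB line is a clone or a pool, and no line lacks the hairpin. The tables hold repeat sequences and transcripts of ACTB and GAPDH, so EXOSC3 itself and the marker genes of pluripotency were not analysed here.

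EXOSC3 is a cap subunit of the RNA exosome, a ring-shaped assembly that digests RNA 3′ to 5′ in nucleus and cytoplasm. The nuclear exosome is known for removing short-lived transcripts from promoters, enhancers and intergenic DNA, and much of that RNA contains repeats. Satellites are tandem arrays found at centromeres and other heterochromatin. Endogenous retroviruses consist of an internal coding sequence between 2 long terminal repeats (LTRs) that act as promoters, and HERVH with its LTR7 promoters is known for its transcription in human pluripotent cells. L1 elements copy themselves through RNA, Alu and SVA elements use the L1 machinery, and DNA transposons are fossils that no longer move in the human genome.

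Assigned estimated counts summed to 4565796 in the PB library with dox, 5260196 in clone 1 with dox and 3745262 in clone 2 with dox. Of 1047 sequences, 699 reached 10 counts in 1 or more libraries and were tested. Levels are CPM, counts scaled to library size, with TMM factors, an adjustment that sets the typical sequence to the same level in each library. Alu, ACTB and GAPDH together took 45.6% of assigned counts in the PB library with dox, 68.7% in clone 1 and 54.2% in clone 2, so the library with the largest share of these 3 leaves the smallest share for the rest. The scaling therefore decides the side of most sequences. With TMM both clones were below PB for 33.6% of the 699 sequences (235) and above it for 34.2% (239). With total counts as the scale these numbers were 510 and 37, and with the summed ACTB and GAPDH counts they were 605 and 15. Every direction below is relative to the median sequence, whose log2 difference was 0.01 with TMM, -0.40 with total counts and -0.63 with ACTB and GAPDH.

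The sequences that passed as lower in EXOSC3r cells under dox were HERVH and some of the satellite and tandem repeat names. Of 699 sequences, 7 passed as lower in EXOSC3r cells, 1.00%, and 0 passed as higher (edgeR quasi-likelihood test, Benjamini-Hochberg adjusted p under 0.05, 2 residual degrees of freedom). They were ACRO1, MER22, 6kbHsap, the alpha satellites ALR, ALR1 and ALRb, and HERVH. An unadjusted p under 0.05 was reached by 53 sequences, 7.58%, of which 22 were lower, 3.15%, and 31 higher, 4.43%. Without dox 0 passed in edgeR, and 16, 2.29%, had an unadjusted p under 0.05, 9 of them lower, 1.29%, and 7 higher, 1.00%. DESeq2 also called 7 lower and 0 higher. The lone PB library has no replicate, so the test assumes that it varies as the clones do, and the p-values measure the spread between clones. The 2 residual degrees of freedom come from the same 2 clones, with and without dox, and are not independent estimates of that spread.

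ACRO1, a satellite of the acrocentric chromosomes, showed the largest fold among the 7. It was at 29.3 CPM in PB cells with dox, 1.53 in clone 1 and 2.19 in clone 2, which rest on 162, 6.01 and 9.16 estimated counts. PB was thus 19.1-fold above clone 1 and 13.3-fold above clone 2, with few counts behind both clone values. The log2 difference was -3.95 ± 0.40 (SE, n = 2 clones against 1 library, edgeR adjusted p = 0.011). Without dox the 3 lines lay close together, at 2.73 CPM in PB, 1.49 in clone 1 and 2.25 in clone 2.

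MER22 was at 431 CPM in PB cells with dox, 191 in clone 1 and 185 in clone 2, from 2389, 747 and 760 counts. The clones differed from each other by far less than from PB, which was 2.26-fold and 2.33-fold above them (log2 difference -1.20 ± 0.09, edgeR adjusted p = 0.0055). Without dox it was at 202, 183 and 195 CPM in the same order. 6kbHsap showed the same layout at a higher level, with 2863 CPM in PB, 1557 in clone 1 and 1575 in clone 2. PB was 1.84-fold and 1.82-fold above the clones (log2 difference -0.87 ± 0.07, edgeR adjusted p = 0.0064), whereas without dox the 3 lines were at 1529, 1482 and 1496 CPM. For both sequences PB with dox was the single library that stood apart from the other 5.

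Alpha satellites are the tandem repeats of centromeres. ALR, with 408 CPM in PB, 211 in clone 1 and 253 in clone 2, had a log2 difference of -0.81 ± 0.12 (edgeR adjusted p = 0.046). ALR1 was at 327, 157 and 189 CPM (-0.92 ± 0.13, adjusted p = 0.040 in edgeR). ALRb was at 113, 50.1 and 48.5 CPM (-1.19 ± 0.16, adjusted p = 0.035 in edgeR). In all 3 cases both clones were well below PB. ALR2 (80.0 CPM in PB, 49.8 and 53.8 in the clones) and the entry ALR_ (435, 268 and 343 CPM) lay on the same side without passing (edgeR adjusted p = 0.61 and 0.70). For ALRa, at 27.3 CPM in PB, and ALRa_, at 11.6, clone 1 was below and clone 2 above PB. Thus 5 of the 7 alpha satellite entries were lower in both clones, against 33.6% of all sequences, 0 were higher, and their median log2 difference was -0.63 against 0.01 over all 699.

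Much of the alpha satellite difference was there before induction, to an extent that varied between entries. The log2 ratios of the list sum to PB were -0.86 and -0.58 in the clones with dox, and -0.72 and -0.43 without. Without dox 6 of 7 were lower in both clones, against 34.3% of all sequences, and ALR was at 186 CPM in PB, 106 in clone 1 and 109 in clone 2. That is a log2 difference of -0.79 ± 0.13 without dox against -0.81 with it, so the difference under dox exceeded the earlier one by -0.03 ± 0.18 for ALR. For ALR1 the excess was -0.42 ± 0.19 and for ALRb -0.74 ± 0.24, and none of the 3 passed (edgeR interaction adjusted p = 1.00 each). MER22, with an excess of -1.10 ± 0.13, and 6kbHsap, with -0.83 ± 0.11, came nearest to the threshold in that test (adjusted p = 0.076 for both), in which 0 of 699 sequences passed, 9, 1.29%, had an unadjusted p under 0.05, all 9 toward lower, and DESeq2 called 3. The 3 were MER22, 6kbHsap and HERVH. The same 3 passed with the libraries of each line paired (edgeR adjusted p = 0.0235, 0.0202 and 0.0202), a comparison made within lines. This paired fit had 1 residual degree of freedom and 1 PB line. The 3 also passed when Alu, ACTB and GAPDH were left out of the fit (edgeR adjusted p = 0.0229 each). None of the 3 passed with total counts, with ACTB and GAPDH scaling, with DESeq2 size factors or in limma. Summed over all 7 entries, between which reads may have been divided, alpha satellite RNA took 0.170% of assigned counts in PB with dox (95% Clopper-Pearson interval 0.166 to 0.174), 0.0574% in clone 1 (0.0554 to 0.0595) and 0.103% in clone 2 (0.0996 to 0.106). The intervals cover counting error only. The sum had a log2 difference of -0.72 ± 0.15 and did not pass (edgeR adjusted p = 0.38).

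**Figure D1:**
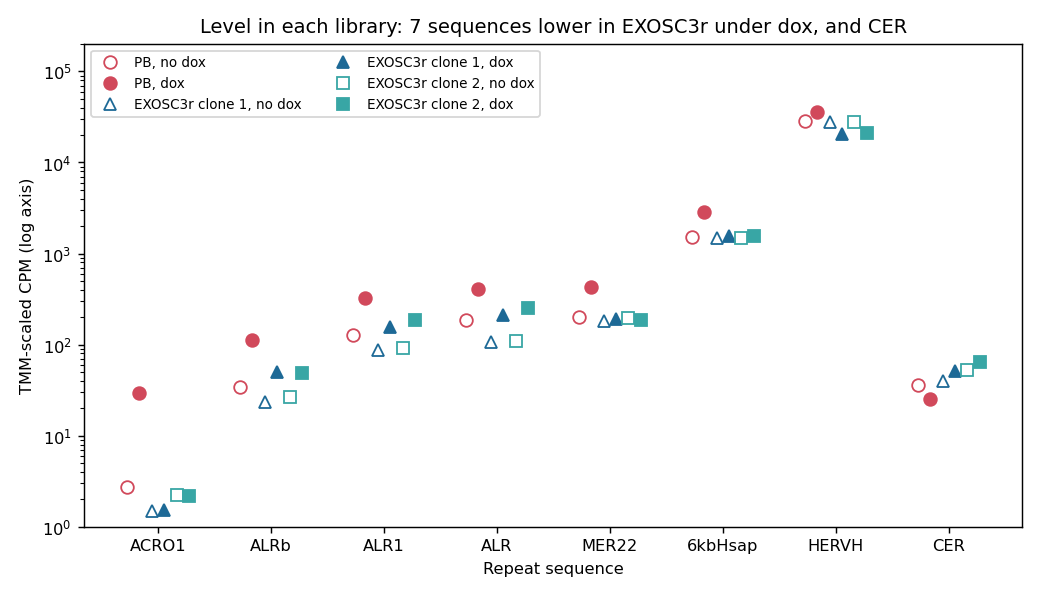
TMM-scaled CPM on a log axis of the 7 sequences that passed as lower in EXOSC3r cells under dox, and of CER, in each of the 6 libraries (1 point per library; filled symbols with dox, open symbols without). ACRO1, MER22 and 6kbHsap in PB with dox stand above all 5 other libraries, ALR is higher in PB than in the clones with and without dox, and CER is lowest in PB with dox at 25.5 CPM.

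PB with dox was the highest of the 6 libraries for each of the 7 sequences that passed. Passing as lower already puts PB with dox above the clones with dox, so only its rank against the libraries without dox adds information. Among sequences with at least 50 counts in PB with dox, 6 were at least 1.5-fold above every other library there, namely ACRO1, MER22, 6kbHsap, ALR, ALR1 and ALRb. ALR rose with dox in each line, and PB was above the clones by a similar log2 difference without dox. The same count was 0 for PB without dox, 0 and 1 for clone 1 without and with dox, and 1 and 0 for clone 2. In the opposite direction the filter was stricter, at least 50 counts in each of the other libraries. Of the sequences that met it, none was 1.5-fold below every other library in PB with dox.

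Of 15 tested satellite and tandem repeat names outside the alpha satellites, 7 were lower in both clones and 5 higher, which is 46.7% and 33.3% against 33.6% and 34.2% of all sequences, with a median log2 difference of 0.07. CER, a centromeric satellite, went the opposite way to ACRO1: it was at 25.5 CPM in PB with dox, 51.1 in clone 1 and 64.3 in clone 2, from 141, 200 and 264 counts. Both clones were at least 2.01-fold above PB, with a log2 difference of 1.18 ± 0.26 that did not pass (edgeR adjusted p = 0.34). Without dox CER was at 36.5, 39.4 and 53.0 CPM, the clones again above PB. HSATII, a classical satellite of pericentromeric heterochromatin, was at 1.81 CPM in PB and 4.09 and 4.87 in the clones, from at most 20 counts a library. The beta satellite entry BSRa was at 2.71 CPM in PB and 0.767 and 0.487 in the clones, from 15, 3 and 2 counts. Neither passed in edgeR (adjusted p = 0.61 for both), whereas limma called BSRa on log2(TPM + 1) (adjusted p = 0.047) and on log2(TPM + 0.1) (0.028). HSAT4, another name of this list, was also called in both limma settings and not in the main edgeR fit. HSAT5 was at 58.0 CPM in PB and 58.3 and 63.6 in the clones, and SATR2 at 50.4, 37.6 and 47.5 (edgeR adjusted p = 0.95 and 0.87). The names with the most reads in the list, 6kbHsap and MER22, were those described above as lower.

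HERVH, the internal sequence of the retrovirus active in pluripotent cells, was at 35678 CPM in PB with dox, 20519 in clone 1 and 21046 in clone 2. PB was 1.74-fold and 1.70-fold above the clones (log2 difference -0.78 ± 0.10, edgeR adjusted p = 0.035). Without dox the lines were within 1 SE of each other in the fit, with 28392 CPM in PB, 27572 in clone 1 and 28169 in clone 2 (-0.03 ± 0.10). PB with dox was thus the highest library and the clones with dox the lowest pair. The LTR7 promoters named for HERVH did not follow it as a group. LTR7Y was at 5266 CPM in PB and at 4526 and 4112 in the clones (-0.29 ± 0.11, edgeR adjusted p = 0.61). LTR7B lay on the other side, at 2559 CPM in PB and 3319 and 2597 in the clones (0.21 ± 0.18). LTR7A and LTR7C had clone 1 above and clone 2 below PB. Summed over 4 LTR7 names the level was 14188 CPM in PB, 15311 in clone 1 and 12015 in clone 2, on different sides.

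Internal sequence and LTRs were compared in 5 more families. HERVK, the youngest human retrovirus group, was at 4100 CPM in PB, 7973 in clone 1 and 4171 in clone 2, so that its side rests on clone 1 (log2 difference 0.57 ± 0.36, edgeR adjusted p = 0.80). Its promoter LTR5_Hs behaved alike, at 1245, 1987 and 1193 CPM (0.35 ± 0.28). HERV9 was at 3661 CPM in PB and 4420 and 4124 in the clones, and its 6 LTR12 names summed to 9022, 10340 and 9577 CPM, so both parts were higher in both clones. LTR12C alone, the most abundant of them, was at 6875, 8199 and 7513 CPM (0.19 ± 0.13, edgeR adjusted p = 0.80). The internal sequence and the LTRs of THE1 had the clones on different sides of PB, with log2 ratios from -0.02 to 0.02. MST internal sequence was lower in both clones while the MST LTRs were split, and for MLT1 both parts were higher by at most 0.07.

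**Figure D2:**
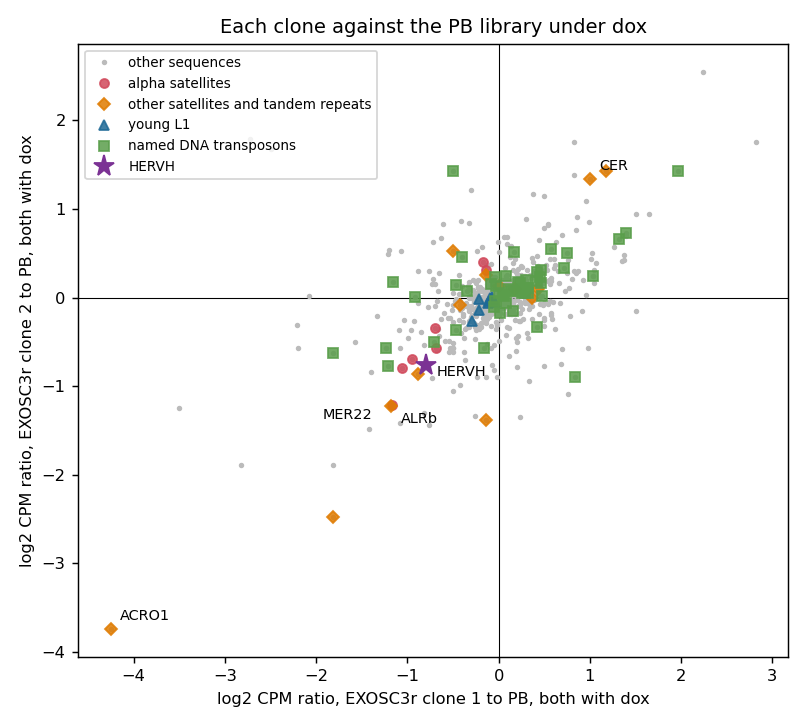
Log2 ratio of CPM to the PB library under dox for clone 1 (x axis) and clone 2 (y axis), 1 point per sequence, for 691 sequences with reads in all 3 libraries (8 are not drawn). Both axes share the PB library, which by itself draws points toward the diagonal. ACRO1, MER22, ALRb and HERVH lie low in both clones, CER lies high in both, and DNA transposons lie mostly to the upper right of the origin.

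L1 sequences of primate age lay mostly below PB, by small amounts. Of 9 young L1 names, L1HS to L1PA8, 8 were lower in both clones and 0 higher, against 33.6% and 34.2% of all sequences. Their median log2 difference was -0.07, and none passed. L1HS, the group that still moves in people, was at 65032 CPM in PB, 53252 in clone 1 and 54093 in clone 2 (log2 difference -0.28 ± 0.12, edgeR adjusted p = 0.61). The clones were close to each other and both below PB. L1PA2 was at 2361, 2031 and 2143 CPM (-0.18 ± 0.08, edgeR adjusted p = 0.70). From L1PA3 to L1PA8 no log2 difference was larger in size than -0.11, and only for L1PA4 did the clones lie on different sides, at 5791 and 6112 CPM against 6108. The names are near-identical sequences among which reads were divided, so they are not independent counts of a direction.

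Of 28 older primate L1 names 18 were lower in both clones and 4 higher, 64.3% and 14.3% against 33.6% and 34.2% of all sequences (median -0.09), and none passed. L1PREC1, the most abundant of these, was at 21545 CPM in PB, 18799 in clone 1 and 20427 in clone 2 (-0.14 ± 0.11, edgeR adjusted p = 0.88). Without dox 7 of 9 young and 21 of 28 older primate L1 names were lower in both clones, against 34.3% of all sequences. L1HS was an exception, with 54061 CPM in PB and 52535 and 56096 in the clones without dox, though the difference between dox and no dox did not pass (-0.28 ± 0.17, edgeR interaction adjusted p = 1.00). Mammalian-wide L1 had 36.8% of 76 lower and 35.5% higher.

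**Figure D3:**
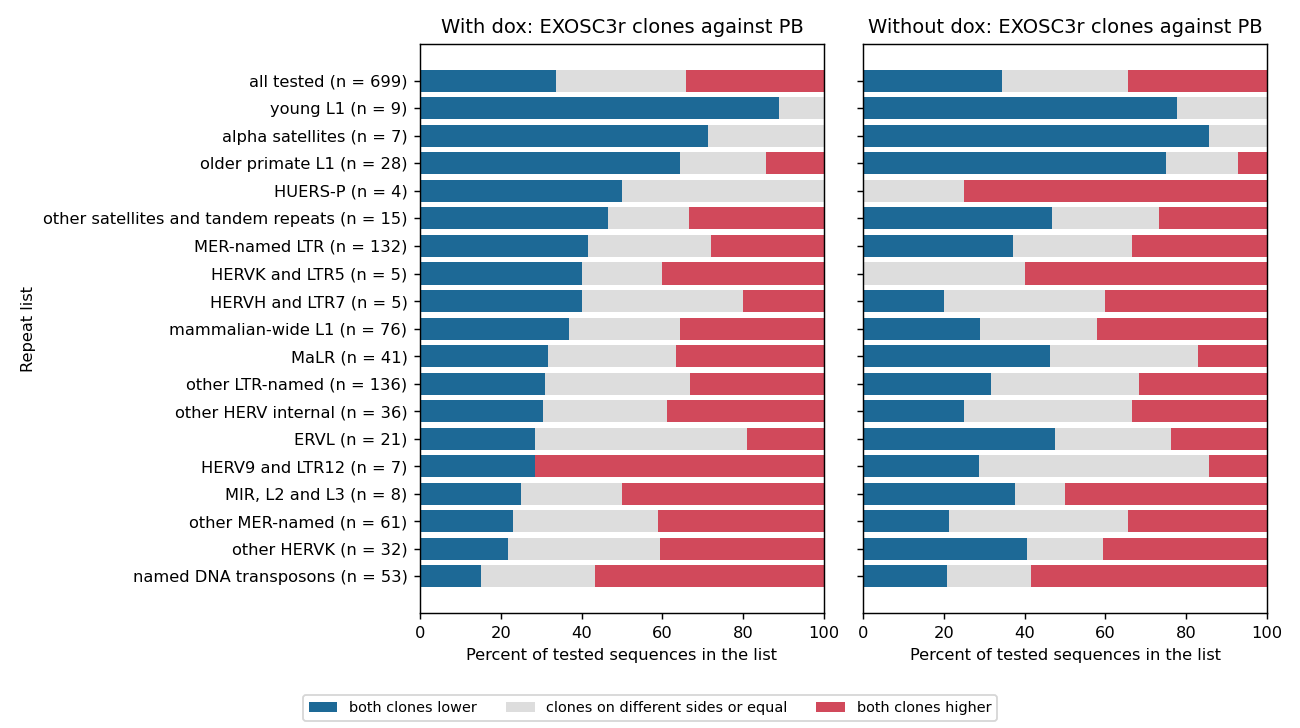
Percent of the tested sequences of each list that both EXOSC3r clones placed below the PB library (blue), above it (red) or on different sides (grey), with dox on the left and without on the right; the top bar covers all 699. Young L1, alpha satellites and older primate L1 have the largest blue shares among the lists drawn and named DNA transposons the smallest with dox, and the 4 lists look alike in both panels.

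DNA transposons lay mostly on the opposite side. Of 53 named DNA transposons 30 were higher in both clones and 8 lower, against 34.2% and 33.6% of all sequences, with a median log2 difference of 0.16, and 0 passed. CHARLIE10, of the hAT group, was at 16.3 CPM in PB, 42.7 in clone 1 and 27.0 in clone 2 (1.10 ± 0.35, edgeR adjusted p = 0.61). CHARLIE6 was at 37.9, 63.9 and 53.8 CPM (0.63 ± 0.20, edgeR adjusted p = 0.61). In both cases clone 1 was furthest from PB. TIGGER1, of the mariner-like group and the most abundant name of the list, was only 1.10-fold and 1.06-fold above PB, at 7846 and 7549 against 7146 CPM. The list was placed the same way without dox, with 31 of 53 higher in both clones, against 34.3% of all sequences, and 11 lower. Among other MER-named sequences, many of them short DNA transposons, 25 of 61 were higher and 14 lower, against 34.2% and 33.6% of all sequences and 41.5% higher among those with at least 100 CPM. MER1A was at 1095 CPM in PB and 1435 and 1305 in the clones (0.32 ± 0.10, edgeR adjusted p = 0.61), and MER104C was at 14.8, 26.8 and 27.8 CPM (0.88 ± 0.23, edgeR adjusted p = 0.61).

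Other old elements included L2, an ancient relative of L1, which was at 481 CPM in PB, 815 in clone 1 and 647 in clone 2 (0.60 ± 0.20, edgeR adjusted p = 0.61). It was also higher in both clones without dox, at 503 CPM in PB and 716 and 548 in the clones. Of the 8 tested MIR, L2 and L3 names 4 were higher and 2 lower, against 34.2% and 33.6% of all sequences, and their sum was at 790 CPM in PB, 1245 in clone 1 and 975 in clone 2.

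The other retroviral lists are read against 33.6% lower and 34.2% higher over all sequences, and none of their members passed in edgeR. Nearest to these shares were 136 other LTR-named sequences, 30.9% lower and 33.1% higher, 41 MaLR sequences, 31.7% and 36.6%, and 36 other HERV internal sequences, 30.6% and 38.9%. MER-named LTRs had 41.7% of 132 lower and 28.0% higher. The 32 other HERVK sequences had 21.9% lower and 40.6% higher, and the 21 ERVL sequences 28.6% and 19.0%. Of 7 HERV9 and LTR12 names 2 were lower and 5 higher. HERV3 was at 161 CPM in PB and 218 and 206 in the clones (0.39 ± 0.11, edgeR adjusted p = 0.61). HERVIP10FH was at 858, 686 and 717 CPM (-0.29 ± 0.08, edgeR adjusted p = 0.61). LTR77 was at 62.5, 36.8 and 23.1 CPM (-1.06 ± 0.33) and LTR40B at 32.7, 50.6 and 50.4 (0.63 ± 0.18). MER4D_LTR was at 202 CPM in PB and 168 and 160 in the clones, and it lay on the other side without dox, at 167, 182 and 177. LTR17, the promoter of the HERVW group, was at 1189, 1738 and 1367 CPM (0.38 ± 0.16). These names were chosen for abundance or a small p. MER57E2 was at 0 in PB with dox and in all 3 libraries without dox, and had 5.45 and 16.1 counts in the clones. Both limma settings called MER57E2.

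Alu, the most abundant short interspersed repeat, was higher in both clones, but by unequal amounts. It was at 271950 CPM in PB with dox, 706154 in clone 1 and 366090 in clone 2, which is 2.60-fold and 1.35-fold above PB. The log2 difference was 0.98 ± 0.39 (edgeR adjusted p = 0.61). Without dox Alu was also higher in both clones, 1.59-fold and 1.26-fold above PB. The reference transcripts ran in parallel: ACTB was 2.07-fold and 1.12-fold and GAPDH 2.10-fold and 1.31-fold above PB. ACTB, a cytoskeletal actin, and GAPDH, a glycolytic enzyme, were also higher in both clones without dox, and their part in the Alu difference was not tested. SVA_A, a composite element that carries Alu-like sequence, was at 6761 CPM in PB and 6460 and 6180 in the clones (-0.10 ± 0.09, edgeR adjusted p = 0.89). The other SVA name had the clones on different sides of PB, and the median log2 difference of the 2 names was 0.07.

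As sums over lists, 8 of the 21 named lists were lower in both clones and 9 higher. Alpha satellites summed to 1401 CPM in PB, 771 in clone 1 and 938 in clone 2. The other satellites and tandem repeats summed to 3527, 1970 and 2013 CPM, most of it 6kbHsap. HERVH and LTR7 summed to 49865, 35830 and 33062 CPM, and young L1 to 100106, 85726 and 88329. The log2 ratios of these 4 sums to PB lay between -0.86 and -0.18 in each clone, and those of the satellite sums were -0.58 or lower. Without dox the alpha satellite sum was also low in both clones, at -0.72 and -0.43, whereas the other satellites were at -0.06 and -0.03 and the HERVH and LTR7 sum at 0.10 and 0.01. The young L1 sum, of which L1HS made up 65032 of 100106 CPM in PB with dox, was at -0.06 and 0.02 without dox. When sums were taken as percent of assigned counts, 17 lists were lower and 2 higher, and relative to ACTB and GAPDH 18 were lower and 1, Alu, higher. All 8 sums lower with TMM, the 4 named here among them, were lower in both clones on the other 2 scales. Those scales put the median sequence itself lower in the clones, at -0.40 and -0.63, so this is no separate check.

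**Figure D4:**
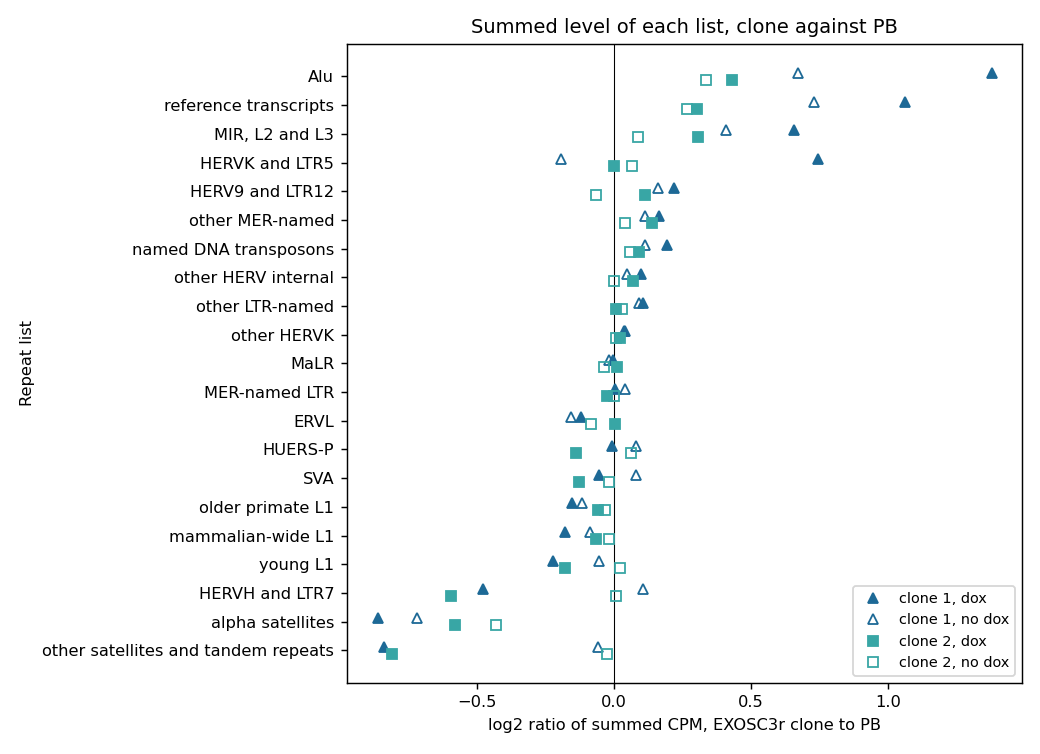
Log2 ratio of the summed TMM-scaled CPM of each list, EXOSC3r clone to PB, with dox (filled) and without (open), 1 point per clone. The other satellites and tandem repeats and HERVH with LTR7 are near 0 without dox and at -0.48 or lower with it in both clones, alpha satellites are low in both conditions, and Alu and the reference transcripts are high with clone 1 furthest out.

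Sequences far from PB in both clones were few and mostly rare. At a margin of 1.5-fold in both clones, 23 of 699 sequences, 3.29%, were lower and 19, 2.72%, were higher. Of the 23, 13 had under 50 counts in each of the 3 libraries, as did 14 of the 19. Of 253 sequences with a mean of at least 100 CPM, 34.4% were lower in both clones (87) and 41.5% higher (105). By the 1.5-fold margin 5 of these, 1.98%, were lower (MER22, 6kbHsap, ALR, ALR1 and HERVH) and 0 were higher. All 7 sequences that passed the test were among the 23. Of the 235 sequences lower in both clones under dox, 119 were lower in both without dox too, 17.0% of all tested, and 54 were higher in both. Of the 239 higher ones, 116 were higher without dox, 16.6% of all tested, and 41 lower. The sequences lower in both clones had a median length of 739 bases, those higher 652 and all tested 666.

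Single libraries decided several of the calls. Without the clone 1 library with dox, MER22, 6kbHsap and ACRO1 passed and the other 4 did not, and with the count filter applied anew to the 5 libraries left, 0 passed and MER22 had an adjusted p of 0.080. Without the clone 1 library lacking dox the same 3 passed. Without the clone 2 library lacking dox, 6 passed and HERVH did not (adjusted p = 0.17). In the 3 libraries with dox alone, 6 passed, again without HERVH (adjusted p = 0.18). A fit that pairs the libraries of each line called 12 lower and 10 higher sequences, but its error holds no spread between clones, which is what a comparison of lines has to exceed. All 7 sequences were lower in every setting in which they could be fitted. Every setting uses the same PB library with dox, against which the 7 were selected as lower, so this is no separate check.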

How the data were processed

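The deposited tables hold 1 library each of stranded total RNA after removal of ribosomal RNA, per the labels' protocols. The tools named are bcl2fastq 2.17, Trimmomatic 0.36 and Salmon 0.13.0, per the submitters' processing notes. Index and genome build: not given in the sources used here. Per the file headers the tables give lengths, an estimated count and a TPM for 1047 sequences. The deposited TPM covers these sequences alone. Each repeat name pools its genomic copies, and reads fitting several names were divided by estimation.

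Estimated counts were rounded and 699 sequences with at least 10 counts in at least 1 library tested with edgeR 4.0.16 (R 4.3.3), quasi-likelihood, TMM, 4 group means over 6 libraries, Benjamini-Hochberg adjustment at 0.05. The biological coefficient of variation was 12.2%. An SE is the log2 difference over the root of F. Alternatives used DESeq2 1.42.0 and limma 3.58.1 on log2(TPM + 1) and log2(TPM + 0.1). In simulated counts the fit recovered 34.4% of log2 changes of 0.5, 90.9% of 1 and 96.9% of 2. Of 152 calls there 7 were false. The simulated libraries were independent, with 1 dispersion for all sequences, so they do not show how the fit handles clones measured in both conditions.

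Lists go by name patterns; 3 patterns that took wrong names (LTR70 to LTR77 under LTR7, MER110 to MER117 under MER11, HERVH48I under HERVH) were corrected on the names. Members and lists were chosen with earlier results of these data known. Sequences eligible to be named were up to 12 in each direction, by passing and size, then p. All of the satellite, HERVH, HERVK, SVA and young L1 lists were eligible too. So were the most abundant and smallest-p member of each other list. Not all eligible sequences are printed. Internal sequences came with their families, and MER57E2 through its p. Each line gave 1 library with and 1 without dox, which pairs them; the clone deviations without and with dox correlated at 0.15 over 699 sequences and 0.60 over the 253 with at least 100 CPM. No libraries were duplicates: the lowest chi-square over its degrees of freedom between any pair was 20.9.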

Additional observations from a re-analysis of the deposited data

How the results depend on the processing

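The following limits hold for EXOSC3r minus PB under dox; causes were not tested. Main numbers were 7 sequences lower and 0 higher. With total counts 3 were lower, with ACTB and GAPDH scaling 1 and with families summed 3. With limma on log2(TPM + 1) 3 were lower and 1 higher, and on log2(TPM + 0.1) 6 were lower and 1 higher. With the replicate block 12 were lower and 10 higher. Leaving out each clone library in turn gave 0 to 9 lower and 0 to 12 higher; these come from applying the count filter anew, a choice made after seeing the data; with the same sequences tested throughout the ranges were 3 to 7 and 0 to 4. The limma and the ACTB and GAPDH settings kept 1 of the 7 calls, ACRO1. Over all settings ACRO1 passed in 17 of 18, MER22 in 15 of 19 and 6kbHsap in 14 of 19. ALRb passed in 11 of 18, ALR1 in 10 of 18, and ALR and HERVH in 9 of 18 each. ACRO1 had too few counts to enter the setting with at least 10 counts in all libraries. Among 34 named log2 differences, taken relative to the shift of the median where this exceeded 0.1, 1 changed sign: LTR5_Hs was at -0.066 without clone 1 with dox, the low end of a leave-one-out range up to 0.67. Without dox, where 0 passed, total counts and ACTB and GAPDH scaling each gave 1 higher, both limma settings 2 higher, and leaving out clone libraries 0 to 1 lower and 0 to 1 higher. For the difference between dox and no dox, where 0 passed, total counts and ACTB and GAPDH scaling each gave 1 lower, at least 10 counts in all libraries 2, DESeq2, the replicate block and the fit without Alu, ACTB and GAPDH 3 each, and leaving out clone libraries 0 to 1; limma gave 2 lower and 1 higher on log2(TPM + 1) and 6 lower and 1 higher on log2(TPM + 0.1), none of them MER22, 6kbHsap or HERVH. In the difference between dox and no dox, the 1 lower sequence with total counts and with ACTB and GAPDH scaling was not MER22, 6kbHsap or HERVH. ACRO1, with few counts in both clones, was among the sequences that limma on log2(TPM + 0.1) called for this difference. No edgeR or DESeq2 setting called ACRO1 there. For these 2 comparisons several of the settings were added after seeing the data. Both clones were lower for 235 sequences with TMM, 510 with total counts and 605 with ACTB and GAPDH, and higher for 239, 37 and 15; at the 1.5-fold margin lower for 23, 59 and 98 and higher for 19, 7 and 5. List sums lower in both clones numbered 8 with TMM, 17 as percent and 18 relative to ACTB and GAPDH, and higher 9, 2 and 1. Sequences under about 50 counts limit what can be shown for rare satellites.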
